A study of Rattus norvegicus with 84 samples.

Results

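Neutrophil granule and myeloid genes were followed in the RNA of extracellular vesicles (EVs), the membrane particles that cells release, after stroke in rats. The set held 10 genes, S100a8, S100a9, Ngp, Camp, Mmp8, Mmp9, Csf3r, Cxcr2, Lyz2, and Itgam, taken by symbol from the count table, which lists 18782 annotated genes among 26637 rows. All 10 were found. The rats were wild-type male Sprague-Dawley animals, and those that underwent the occlusion were aged 8 to 12 weeks at surgery. No age was found for the healthy rats in the sources used here. Stroke was induced by occluding the middle cerebral artery of the right hemisphere for 90 min, and 3 days later the rats received either saline (control) or human neural stem cells (hNSCs) through the carotid artery. EVs were isolated from the ipsilateral hemisphere (brain EVs) and from the plasma of 3 rats in each of 7 groups, which were healthy rats and, sampled 4, 10, or 31 days after the occlusion, control and hNSCs rats. The EVs were thus 1 day, 7 days or 28 days removed from the injection, and the control rats share the surgery and the carotid injection with the hNSCs rats but the healthy rats share neither.

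Neutrophils are white blood cells that move into injured tissue early, and they carry their antimicrobial proteins and proteases ready-made in granules. The granules are filled in sequence while the cell matures in bone marrow, so many granule genes are transcribed mainly in precursors, whereas receptors, S100 proteins, and adhesion molecules are also transcribed in circulating cells. S100a8 and S100a9 encode the 2 chains of calprotectin, a calcium-binding complex of neutrophils and monocytes. Ngp and Camp encode a granule protein and the cathelicidin precursor, Mmp8 and Mmp9 encode the neutrophil collagenase and gelatinase B, Csf3r is the receptor of the growth factor G-CSF, and Cxcr2 is a chemokine receptor that guides neutrophils into tissue. Lyz2 encodes lysozyme, and Itgam encodes CD11b, the alpha chain of an adhesion receptor. Lyz2 and Itgam are not particular to neutrophils, because monocytes and macrophages make both and microglia make CD11b.

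The miRNAs miR-223 and miR-142 are known as miRNAs of myeloid cells and of blood cells in general, respectively, and they were read in separate small RNA libraries of the same rats. Their mature sequences are shown because 3 of the 4 were called higher in brain EVs after stroke, and capitals mark the seed (bases 2 to 8). The letters come from RefSeq (GRCr8), and the deposited sequences were the same with T for U. The miR-223 arms lie on the + strand of chromosome X (3p at 65151450 to 65151470, 5p at 65151408 to 65151430) and the miR-142 arms on the + strand of chromosome 10 (3p at 73055155 to 73055177, 5p at 73055119 to 73055139). No seed is shared among the 4.
rno-miR-223-3p: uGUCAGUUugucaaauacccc
rno-miR-223-5p: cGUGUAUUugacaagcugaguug
rno-miR-142-3p: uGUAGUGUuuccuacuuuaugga
rno-miR-142-5p: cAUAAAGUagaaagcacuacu

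The start-site regions of S100a9 and Lyz2, the members with the highest plasma levels, were taken from RefSeq (GRCr8, 250 bases before to 50 after the start), which held 8 of the 10 members. Capitals mark GAGGAA, the core bound by the myeloid factor PU.1, and TTNCNNAA, a loose form of the C/EBP site, on either strand. GAGGAA was found in 4 of the 8 members and in 27.5% of 27457 such regions, and TTNCNNAA in 6 of the 8 and in 40.8% of them. Such matches describe the letters only.
S100a9 (chr2:178490573-178490872, minus strand): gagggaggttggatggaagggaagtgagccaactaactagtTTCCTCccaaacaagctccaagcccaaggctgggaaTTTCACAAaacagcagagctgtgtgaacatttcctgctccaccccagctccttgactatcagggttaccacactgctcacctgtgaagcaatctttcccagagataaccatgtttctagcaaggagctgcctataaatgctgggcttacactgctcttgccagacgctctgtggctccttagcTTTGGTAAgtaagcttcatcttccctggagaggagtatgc
Lyz2 (chr7:54797962-54798261, minus strand): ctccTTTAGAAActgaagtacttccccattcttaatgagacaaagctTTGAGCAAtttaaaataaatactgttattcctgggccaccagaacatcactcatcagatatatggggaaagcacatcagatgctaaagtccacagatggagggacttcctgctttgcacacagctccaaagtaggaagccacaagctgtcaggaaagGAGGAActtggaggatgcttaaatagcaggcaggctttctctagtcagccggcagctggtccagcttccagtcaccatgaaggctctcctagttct

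Annotated genes took 6357675 to 31028559 reads per plasma library and 569136 to 15587216 per brain library, so 3 reads, the limit that a count of 0 allows, stood for 0.0851 to 0.381 CPM (reads scaled by the size of the library's annotated total) in plasma and for 0.184 to 4.52 CPM in brain. These limits cover counting error only. Levels are given as CPM with TMM-scaled library sizes, and a gene was called at an edgeR quasi-likelihood Benjamini-Hochberg adjusted p under 0.05 with a change over 1.5-fold, over all genes tested in that tissue. Brain depth differed between groups, with 1403190 to 4498193 annotated reads in healthy libraries, 3428151 to 6105035 in control libraries at 4 days, 1500439 to 2317700 at 10 days, and 6379318 to 15587216 at 31 days, and its part in the brain results was not tested. Neuronal transcripts were abundant in brain EVs (summed Snap25, Syt1, Map1b, Map1a, and Camk2a at 10230 to 13313 CPM in healthy rats) and low in plasma EVs (33.3 to 137 CPM), where platelet, red cell, and liver transcripts were abundant. In bulk EV RNA, fewer vesicles of a cell type and less of a transcript per vesicle cannot be told apart.

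In plasma EVs all 10 members passed the filter on low counts, but their levels spanned a wide range. By FPKM, which is per length, Lyz2 was the highest member with a mean of 218 ± 244 (SD, n = 21) and rank 129 of 18782 genes, and it lay above S100a9 in 21 of 21 libraries. S100a9 followed with a mean FPKM of 123 ± 185 and rank 195, then S100a8 with 22.6 ± 43.6 and Mmp8 with 8.31 ± 12.0. S100a9 exceeded its partner S100a8 in 21 of 21 libraries. S100a8 was above Mmp8 in 18 libraries and Mmp8 above Csf3r (2.78 ± 2.07) in 15, so the order of these neighbors varied among libraries. Cxcr2, Camp, Itgam, Ngp, and Mmp9 had mean FPKM values of 0.942, 0.706, 0.648, 0.505, and 0.305. Ngp, Camp, and Mmp9 had reads in only 5 of 21 libraries each, and 1647 of the 1809 Mmp9 reads came from healthy rat 1.

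At 4 days the plasma of control rats had higher values of the calprotectin and collagenase transcripts than the plasma of healthy rats, without overlap, but no member passed the genome-wide test. S100a9 was at 65.7, 62.9, and 135 CPM in the healthy rats and at 373, 1757, and 413 CPM in the control rats at 4 days. Every day 4 control value was thus above every healthy value, and control rat 2 stood far above the others. The log2 fold change was 3.27 ± 0.82 (SE, 3 rats per group), with an unadjusted p of 0.000764 and an edgeR adjusted p of 0.274. S100a8 was at 9.65, 7.06, and 23.3 CPM in healthy rats and at 43.6, 323, and 78.9 CPM in control rats at 4 days. The groups did not overlap here either, and the log2 difference was 3.48 ± 1.91 (edgeR adjusted p = 0.742).

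Mmp8 followed the same order of rats. It was at 12.5, 2.01, and 15.1 CPM in healthy rats and at 65.0, 252, and 69.9 CPM in control rats at 4 days, a log2 difference of 3.70 ± 1.45 (unadjusted p = 0.0189, edgeR adjusted p = 0.742). Among the receptors, Cxcr2 was at 3.69, 1.92, and 11.0 CPM in healthy rats and at 12.6, 51.8, and 28.4 CPM in control rats at 4 days, again without overlap. Csf3r overlapped, at 80.8, 19.2, and 50.3 CPM against 48.0, 105, and 68.7 CPM. Lyz2 was at 647, 183, and 1148 CPM in healthy rats and at 1139, 4719, and 1153 CPM in control rats, where the lowest control value lay just under the highest healthy one (log2 difference 1.83 ± 0.76, edgeR adjusted p = 0.742). Control rat 2 held the highest value of the group for S100a8, S100a9, Mmp8, Csf3r, Cxcr2, Lyz2, and Itgam, and without it the log2 difference was 2.17 for S100a9, 2.77 for Mmp8, and 0.80 for Lyz2. Ngp was at 2.44, 0, and 9.84 CPM in healthy rats and had no read in the day 4 control rats, so it was at least 109-fold lower with the 3-read limit taken over the group, and the groups overlapped at 0.

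**Figure D1:**
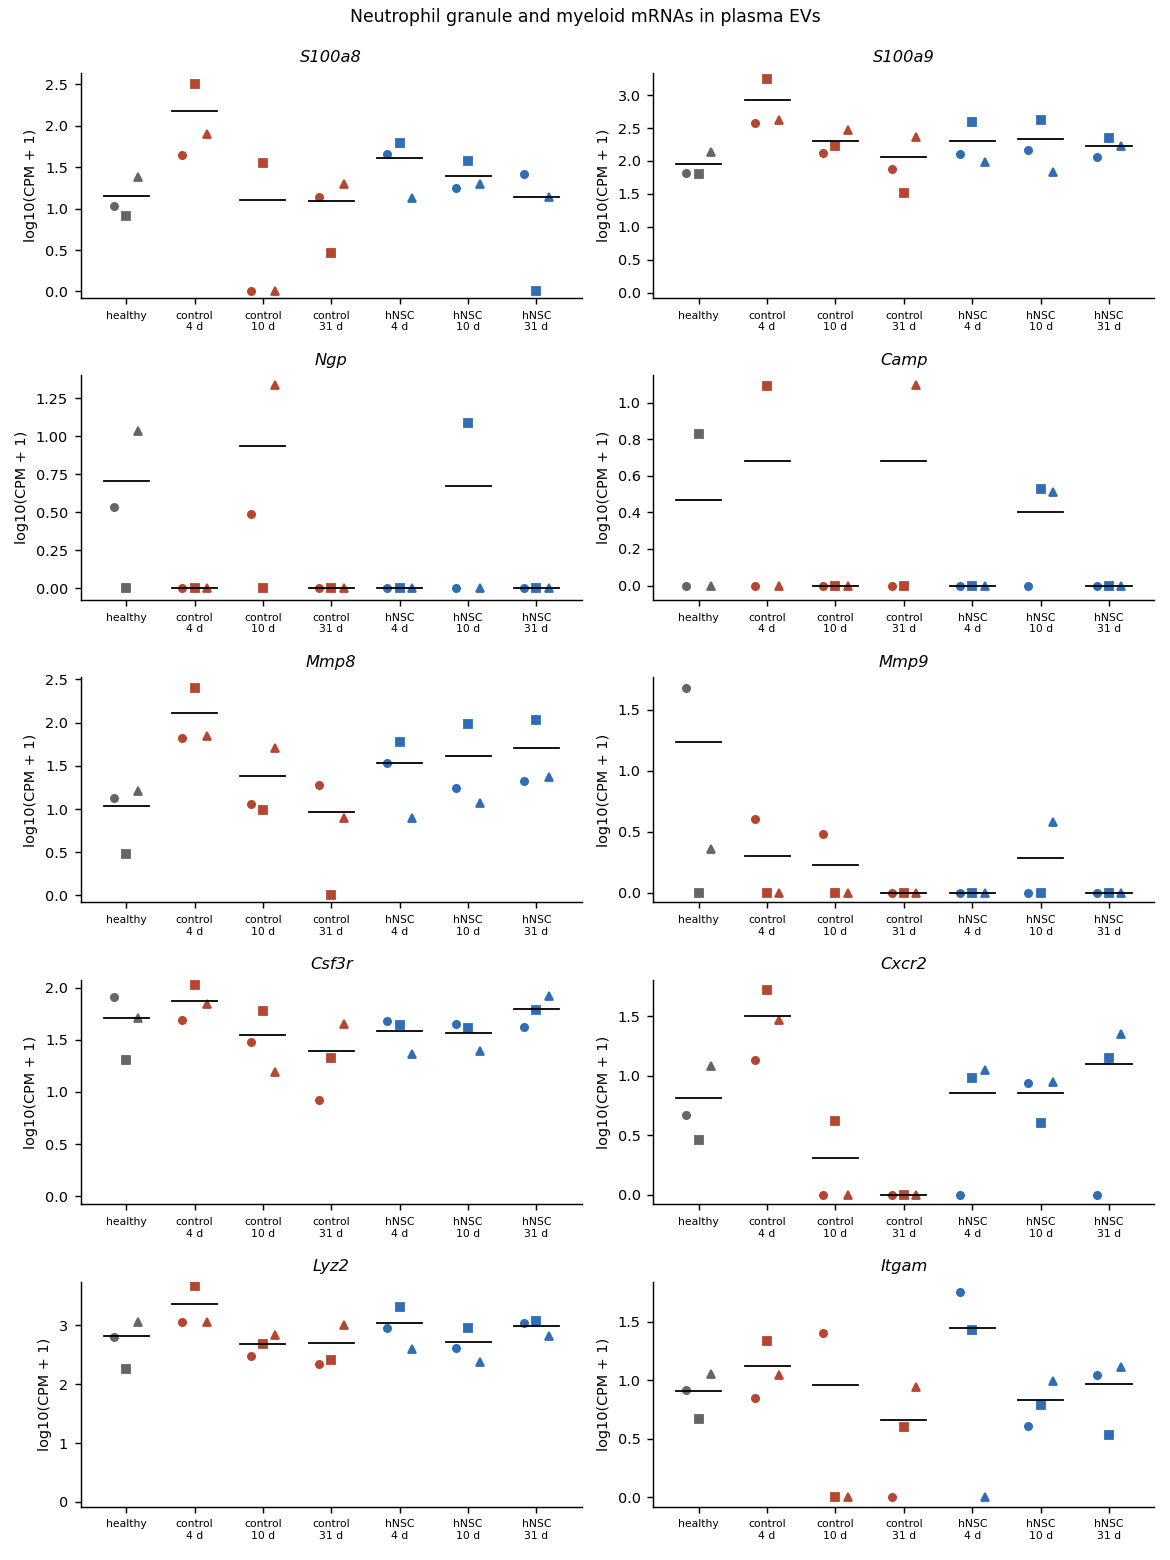
Level of each of the 10 members in plasma EVs, as log10(CPM + 1), in the 7 groups of 3 rats. Circles, squares, and triangles are rats 1, 2, and 3 of a group and the bar is the log10 of the group mean CPM + 1. For S100a8, S100a9, Mmp8, and Cxcr2 the day 4 control rats lie above all 3 healthy rats, and rat 2 is the highest of them.

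Of the 10 members tested, edgeR called 0 at 4 days, where it called 0.0679% of 14720 tested genes, and 3 had an unadjusted p under 0.05, as had 5.86% of genes. DESeq2 called 2 of the 10, S100a9 higher and Ngp lower, against 6.16% of genes, and limma on log2(FPKM + 1) called 0 against 0.0476%. Ngp had reads in only 5 of 21 plasma libraries. Its DESeq2 log2 difference of -23.4 comes from a group with no read and does not measure a size. In 4 of the 10 the day 4 control values all exceeded the healthy ones, against 4.06% of all tested genes. The median log2 difference of the tested members was 1.40, whatever bound is set for Ngp as the lowest of them, and that of all tested genes was -0.12. T cell and red cell markers were lower in the same libraries. The summed T cell markers (5 genes) were at 19.2 to 91.0 CPM in day 4 control rats and at 219 to 358 CPM in healthy rats, and the 5 red cell markers were at 135 to 229 against 715 to 2234 CPM, with Alas2, the erythroid enzyme of heme synthesis, called lower (log2 difference -3.31 ± 0.54, edgeR adjusted p = 0.0164). The 8 monocyte and macrophage markers overlapped, at 374 to 848 CPM against 345 to 2268 CPM in healthy rats. The 3 endothelial markers were higher without overlap of their sums, at 200 to 287 against 94.3 to 119 CPM, with 0 called. Hemoglobin genes took 1.73 to 3.45% of annotated reads in these control rats and 4.27 to 10.8% in healthy rats, and the part of any of these in the member values was not tested.

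At 10 and 31 days the plasma values of control rats overlapped the healthy ones for every member but Cxcr2 at 31 days. S100a9 was at 132, 167, and 299 CPM at 10 days and at 74.1, 31.2, and 234 CPM at 31 days in control rats. S100a8 had no read in 2 of the 3 control rats at 10 days. edgeR called 0 members and 0% of genes at both times. At 10 days 0 members had an unadjusted p under 0.05 (5.60% of genes), and DESeq2 called 0 (8.25% of genes) and limma 0 (0.0204%). At 31 days 2 members, Mmp9 and Cxcr2, had an unadjusted p under 0.05 (4.75% of genes), DESeq2 called 2, Ngp and Cxcr2 (4.48% of genes), and limma 0 (0.0408%). Mmp9 and Ngp had reads in only 5 of 21 plasma libraries each, and most Mmp9 reads came from healthy rat 1. The unadjusted p of Mmp9 and the DESeq2 call of Ngp (log2 difference -23.5) are thus no support for a fall. Cxcr2 had no read in any of the 3 control rats at 31 days, against 3.69, 1.92, and 11.0 CPM in the healthy rats, so it was at least 158-fold lower, with the 3-read limit taken over the group (edgeR adjusted p = 0.844). It was the 1 member below the healthy range without overlap, as were 7.84% of genes.

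Between 4 and 31 days in control rats, 6 of the 10 members fell below the day 4 range without overlap in plasma, against 4.49% of tested genes, and these comparisons share the day 4 libraries with the one against healthy rats. S100a9 differed by -2.91 ± 0.81 (log2, edgeR adjusted p = 0.476), Mmp8 by -3.95 ± 1.47, Csf3r by -1.63 ± 0.69, and Lyz2 by -2.23 ± 0.78. Without control rat 2 of day 4 these were -1.80 for S100a9 and -1.20 for Lyz2. S100a8 differed by -3.73 ± 1.93, and Cxcr2 was at least 836-fold lower. Of the 10, edgeR called 0 (0.170% of genes), and 5 had an unadjusted p under 0.05 (4.56% of genes). DESeq2 called 4, S100a9, Mmp8, Cxcr2, and Lyz2 (6.45% of genes), and limma called Cxcr2 alone (0.211%). Itgam, Camp, Mmp9, and Ngp overlapped between the days.

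hNSCs rats at 4 days, 1 day after injection, had lower plasma values of several members than saline-treated rats, and the difference did not pass the test. S100a9 was at 125, 385, and 94.9 CPM in hNSCs rats, and only the highest of these reached the range of the control rats (373 to 1757 CPM). The log2 difference was -2.07 ± 0.79 (unadjusted p = 0.0158, edgeR adjusted p = 0.814), and it ranged from -2.97 to -0.97 when 1 rat was left out, the weakest without control rat 2. Mmp8 was at 33.1, 59.0, and 6.96 CPM, Csf3r at 46.9, 42.8, and 22.2 CPM, and Cxcr2 at 0, 8.51, and 10.2 CPM. These 3 members lay below the control rats without overlap, as did 4.36% of tested genes. Of the 10 members, edgeR called 0 (0.00679% of genes), 1 had an unadjusted p under 0.05 (3.94%), DESeq2 called 0 (5.93% of genes) and limma 0 (0.0204%).

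At 10 days the hNSCs and control rats overlapped for all 10 members, and S100a9 was at 148, 424, and 67.9 CPM (log2 difference 0.10 ± 0.76). Here edgeR called 0 members and 0% of genes, 0 had an unadjusted p under 0.05 (4.06%), DESeq2 called 0 (7.76% of genes), and limma 0 (0%). At 31 days the direction was the opposite for the receptors and the collagenase. Cxcr2 was at 0, 13.1, and 21.5 CPM in hNSCs rats against 0 in every control rat, at least 304-fold higher, and Csf3r was at 40.8, 59.8, and 83.3 against 7.41, 20.1, and 44.0 CPM (log2 difference 1.36 ± 0.68). Mmp8 was at 19.8, 108, and 22.2 CPM in hNSCs rats and at 18.1, 0, and 6.89 CPM in control rats, the 1 member above without overlap, as were 4.60% of genes. Red cell transcripts differed as well, with hemoglobin genes at 22.2 to 28.8% of annotated reads in hNSCs rats and 6.90 to 17.6% in control rats at 31 days, and their part was not tested. edgeR called 0 members and 0% of genes at 31 days, 1 had an unadjusted p under 0.05 (8.57%), DESeq2 called Cxcr2 alone (11.3% of genes), and limma 0 (0.0951%).

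Whether the hNSCs effect differed between days was tested by interaction terms. Between 4 and 31 days in plasma, S100a9, Mmp8, Csf3r, and Cxcr2 had unadjusted p values under 0.05, as had 9.96% of genes, with a log2 difference between the effects (4 days minus 31 days) of -2.64 for S100a9, and the edgeR adjusted p was 0.425 for each of these 4. Between 4 and 10 days 1 member, Camp, had an unadjusted p under 0.05 (edgeR adjusted p = 0.830, against 5.69% of genes), and between 10 and 31 days 2 had, Camp and Cxcr2 (edgeR adjusted p = 0.337 and 0.341, against 12.1% of genes). Camp had reads in only 5 of 21 plasma libraries and none in the control rats at 10 days. Its log2 estimates of -17.4 and 17.4 thus rest on a group with no read. In brain EVs 0 members did for days 4 and 10 (8.63% of genes), 4 and 31 (4.23%), or 10 and 31 (6.23%).

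**Figure D2:**
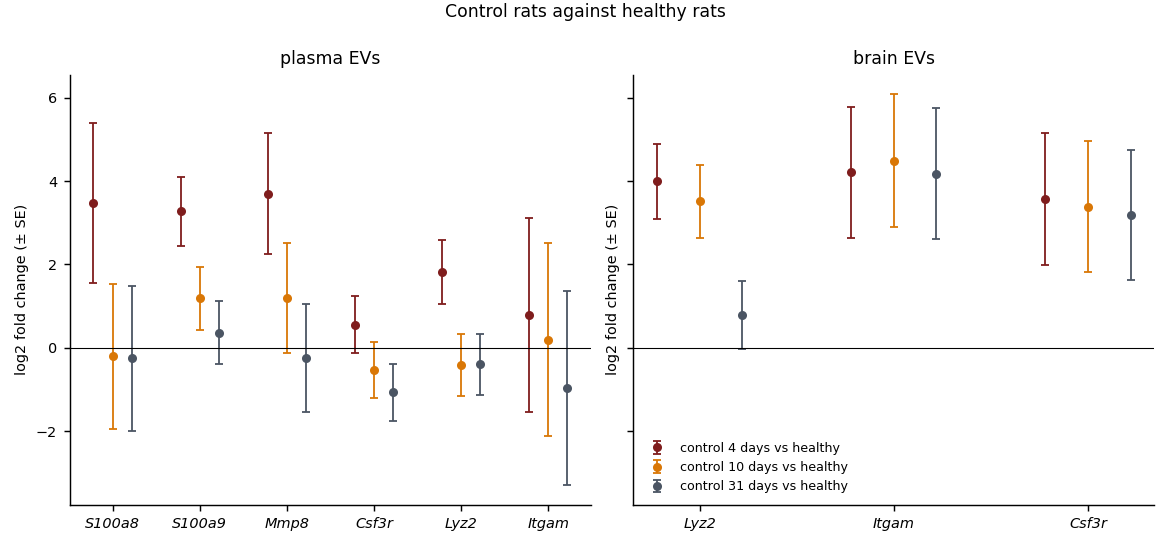
Log2 fold change ± SE from edgeR for control rats at 4, 10, and 31 days against healthy rats (3 rats per group), in plasma EVs on the left and brain EVs on the right. Members with a group at 0 reads in every rat are not drawn. In plasma the 4 day values of S100a8, S100a9, Mmp8, and Lyz2 are the highest of the 3 days, and in brain Lyz2 drops at 31 days to 0.79 while Itgam and Csf3r remain above 3.

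In brain EVs 6 of the members, Ngp, Camp, S100a8, S100a9, Mmp9, and Cxcr2, were at or near 0. Ngp and Camp had 0 reads in 21 of 21 libraries, S100a8 had 2 reads in 1 library, and S100a9 had reads in 2 libraries, 30 in control rat 2 at 4 days and 6 in control rat 1 at 31 days. Mmp9 had 22 reads in 1 library and Cxcr2 had reads in 3. The rat with 30 S100a9 reads in brain EVs was, by the number in the library names, the rat with the highest S100a9 value in plasma EVs. Only Mmp8, Csf3r, Lyz2, and Itgam passed the filter on low counts, and such genes may pass through the group where they are high. The 7 primary granule genes found in the table (Mpo, Elane, Prtn3, Ctsg, and 3 defensin genes) were also at 0 in healthy rats and in control rats at every time. In hNSCs rats Prtn3 had reads in 3 libraries (at most 1.08 CPM) and Mpo in 1 (0.242 CPM). Some secondary granule genes, which macrophages and other cells also express, had reads in more libraries. Chi3l1 had reads in 20 of 21 brain libraries (mean 34.9 CPM), Cyba in 15, Hp in 14, and Cybb in 11, and the 10 secondary granule genes found summed to 56.0 to 92.3 CPM in control rats at 4 days against 21.4 to 34.3 CPM in healthy rats.

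Lyz2 was the only member called in brain EVs, and it rose at 4 days. It was at 17.96, 4.87, and 15.8 CPM in healthy rats and at 370, 149, and 83.4 CPM in control rats at 4 days, with the lowest control value above the highest healthy one. The log2 difference was 3.99 ± 0.89, 15.9-fold (edgeR adjusted p = 0.0303). Of the 4 members tested, edgeR called 1, against 0.861% of 14515 genes. The call did not hold without control rat 1 or 2 or without any 1 of the healthy rats, with adjusted p values of 0.0597 to 0.235, while the log2 difference stayed between 3.19 and 4.36. DESeq2 called Lyz2 alone (5.83% of genes), as did limma (1.75%).

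Lyz2 in control rats at 10 days differed widely between rats. It was at 5.97, 352, and 74.5 CPM, so rat 1 was within the healthy range and the groups overlapped, and the log2 difference of 3.52 ± 0.88 was not called (edgeR adjusted p = 0.0718) but was called without rat 1 (4.11). Without rat 2 it was 1.67 (edgeR adjusted p = 0.694). At 31 days the 3 control rats were at 21.7, 21.7, and 21.9 CPM, just above the highest healthy rat (log2 difference 0.79 ± 0.81, edgeR adjusted p = 1.00). The fall from 4 to 31 days was without overlap, as for 10.1% of genes, with a log2 difference of -3.21 ± 0.85 (edgeR adjusted p = 0.145). The hNSCs rats were at 62.2, 217, and 113 CPM at 4 days, at 26.6, 38.2, and 22.6 CPM at 10 days, and at 20.7, 20.2, and 14.3 CPM at 31 days. They overlapped the control rats at 4 and 10 days (log2 difference -2.30 ± 0.84 at 10 days, edgeR adjusted p = 0.326, and -0.46 without control rat 2). At 31 days they lay just below the control rats, by less than the SE (-0.24 ± 0.79). The share of all genes that did so was not counted.

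Itgam and Csf3r, the surface receptors, were higher in control than in healthy brain EVs at all 3 days without passing the test. Itgam was at 0, 0, and 5.63 CPM in healthy rats and at 46.2, 37.2, and 29.2 CPM at 4 days, 13.2, 80.2, and 43.9 CPM at 10 days, and 16.5, 66.5, and 27.6 CPM at 31 days in control rats. None of these 9 control values overlapped the healthy ones, and Itgam, unlike Lyz2, was at 31 days near its level at 4 days (log2 difference -0.03 ± 1.34). The log2 differences from healthy rats were 4.21 ± 1.58, 4.49 ± 1.60, and 4.18 ± 1.57, with edgeR adjusted p values of 0.195, 0.245, and 0.550. These sizes rest on healthy rat 3, the 1 healthy rat with Itgam reads, since without it the healthy group was at 0, and edgeR called none of the 3 without it. Csf3r was at 0, 1.77, and 3.66 CPM in healthy rats and between 7.25 and 47.4 CPM in the control rats, and its log2 differences were 3.58 ± 1.58, 3.39 ± 1.58, and 3.20 ± 1.56. Mmp8 had no read in healthy rats, 11 reads in 1 control rat at 4 days, and 28 and 17 reads in 2 control rats at 10 days, where it was at least 23.7-fold higher.

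**Figure D3:**
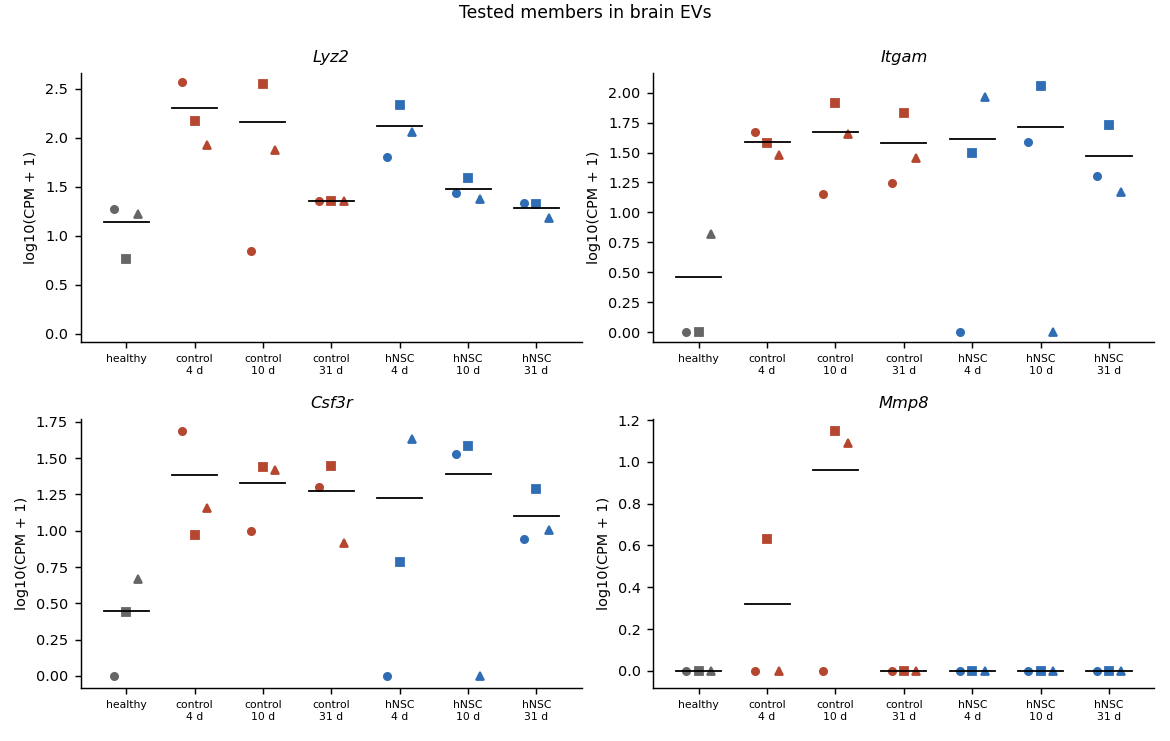
Level of the 4 members that passed the filter in brain EVs, as log10(CPM + 1), in the 7 groups of 3 rats, drawn as for plasma (circles, squares, and triangles for rats 1, 2, and 3, and a bar for the group mean). Lyz2 is high in control rats at 4 days and level at 31 days, whereas Itgam and Csf3r of the control rats stay above the healthy rats throughout.

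At 4 days 3 of the members, Lyz2, Itgam, and Csf3r, had control values all above the healthy ones, as had 13.9% of tested genes, at 10 days 2 (7.05%), and at 31 days 3 (18.9%). At 10 days edgeR called 0 of 4 (0.572% of genes) with 4 at an unadjusted p under 0.05 (12.7%), DESeq2 called Lyz2 and Itgam (4.22%), and limma 0 (0%). Mmp8 was among these 4. It had reads in only 3 of 21 brain libraries, all from control rats, and passed the filter only through them. Its unadjusted p is thus no support for a rise. At 31 days edgeR called 0 (0.00689%) with 1 at an unadjusted p under 0.05 (7.14%), DESeq2 called 0 (1.21%), and limma called Lyz2 and Itgam in a comparison where it called 57.0% of all genes. From 4 to 31 days edgeR called 0 (0.248%) with 2 at an unadjusted p under 0.05 (9.50%), and DESeq2 (1.68%) and limma (28.1%) called Lyz2. The 2 were Lyz2 and Mmp8, with the same limit for Mmp8. When the 3 control days were averaged against the healthy rats, a contrast added after the data were seen, 2 members had all 9 control values above the healthy ones, as had 2.62% of genes. In that contrast edgeR called 0 (0.186%) with 3 at an unadjusted p under 0.05 (12.3%), DESeq2 called Csf3r, Lyz2, and Itgam (4.79%), and limma called Lyz2 (3.16%). The same contrast in plasma gave 0 by edgeR (0%) with 4 at an unadjusted p under 0.05 (9.61%), Ngp by DESeq2 (6.15%), and 0 by limma (0.0204%). Ngp and Mmp9 had reads in only 5 of 21 plasma libraries each, so their values in that contrast are no support for a fall.

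For hNSCs against control brain EVs, edgeR called 0 of the 4 members and 0% of genes at each of the 3 days. At an unadjusted p under 0.05 there were 0, 2, and 0 members at 4, 10, and 31 days, against 7.53%, 13.4%, and 0.0896% of genes. The 2 were Lyz2 and Mmp8, and Mmp8 had passed the filter only through control libraries. DESeq2 called 0 members at each day against 1.52%, 4.38%, and 0% of genes, and limma 0 against 0% at each. The 2 hNSCs rats with no read for Itgam or Csf3r, rat 1 at 4 days and rat 3 at 10 days, had the fewest annotated reads of their groups, and 3 reads there stood for 1.61 and 4.52 CPM.

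Other genes of the lineage gave a similar picture of few calls in brain EVs. Of the 3 tested nuclear factors, Cebpa, which directs granulocyte differentiation, was called higher at 4 and 10 days (log2 differences 4.11 ± 0.72 and 3.79 ± 0.71, edgeR adjusted p = 0.0112 and 0.0193). At these days edgeR called 0.861% and 0.572% of genes. Cebpa was at 4.31, 14.4, and 11.5 CPM in healthy rats and at 294, 108, and 144 CPM at 4 days. The factors Gfi1 and Cebpe, listed but not tested, had reads in 0 and 1 of 21 brain libraries. Of the receptors not tested, Fpr1, Fpr2, Il1r2, and Trem1 had reads in 0 libraries, and Cxcr1, Ccr1, and Clec4e in 6, 2, and 1. Of the 4 tested tertiary granule and adhesion genes, 1 was called higher at 10 days, Itgb2, the beta chain that pairs with CD11b, against 0.572% of genes. It had no read in healthy rats and was at 19.6, 82.5, and 0 CPM in control rats, so the groups overlapped at 0. With the 3-read limit taken over the group it was at least 117-fold higher. At 4 and 31 days all 3 control rats had Itgb2 reads (12.1 to 37.7 and 17.3 to 46.1 CPM). Of 5 oxidase and cytoskeleton genes, 6 receptors, 5 secondary granule genes, and 1 ligand tested, 0 were called by edgeR in any control comparison with healthy rats, with 2, 3, 2, and 0 of them higher at an unadjusted p under 0.05 at 4 days, as were 8.52% of all genes. Among the first, Ncf1, a subunit of the phagocyte oxidase, was at 0, 6.64, and 14.9 CPM in healthy rats and at 61.2, 92.0, and 70.6 CPM at 4 days.

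Markers of monocytes and macrophages were also higher in control than in healthy brain EVs. The 8 markers found summed to 25.9 to 46.1 CPM in healthy brain EVs, 238 to 500 CPM in control rats at 4 days, 75.4 to 693 CPM at 10 days, and 106 to 193 CPM at 31 days, with Csf1r, the receptor of the macrophage growth factor, called higher at 10 days (log2 difference 2.82 ± 0.56, edgeR adjusted p = 0.0242). The 7 microglial markers summed to 48.7 to 122 CPM in healthy rats and 147 to 214 CPM at 4 days, 130 to 624 CPM at 10 days (median 190), and at least 122 CPM at 31 days (median 178) in control rats, with 0 called. T cell markers had reads for Lck alone in control rats, and the summed B cell markers reached at most 1.32 CPM there. The astrocyte gene Gfap was called higher at all 3 days. Over all genes edgeR called 0.861%, 0.572%, and 0.00689% at 4, 10, and 31 days, and the share at 10 days is also that for the Csf1r call. The part of any of these cell types in the Lyz2, Itgam, and Csf3r values was not tested. Of the members other than Lyz2 and Itgam, Csf3r reached 47.4 CPM in control brain EVs, and it was the tested gene most like Itgam over the brain libraries. In control brain EVs Mmp8 reached 13.1 CPM, S100a9 8.93 CPM, and Cxcr2 8.45 CPM, while S100a8, Mmp9, Ngp, and Camp were at 0.

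In plasma the lists of granule genes passed no edgeR test in any comparison. The 7 primary granule genes were all tested, and their sum was at 36.0 to 200 CPM in healthy rats, 217 to 346 CPM in control rats at 4 days, and 15.1 to 50.3 CPM at 31 days. RatNP-3b, a neutrophil defensin, was at 13.9, 108, and 34.8 CPM in healthy rats and at 133, 126, and 132 CPM at 4 days (log2 difference 1.32 ± 1.41). Mpo, the peroxidase of primary granules, overlapped, at 8.63, 53.1, and 24.9 against 42.5, 27.9, and 135 CPM. Of 5 nuclear factors tested, Cebpd was at 20.2, 8.80, and 36.5 CPM in healthy rats and between 91.6 and 147 CPM in control rats at 4 days (log2 difference 2.54 ± 0.65, edgeR adjusted p = 0.298). Spi1 and Cebpa overlapped (log2 differences 0.22 ± 0.71 and 1.37 ± 1.02). Itgb2 was lower without overlap, at 17.8 to 54.4 CPM against 57.3 to 111 CPM in healthy rats (log2 difference -1.17 ± 0.53, edgeR adjusted p = 0.742). Of 5 ligands, the cytokine gene Il1b was at 24.2, 14.3, and 52.5 CPM against 148, 187, and 85.7 CPM. Of the secondary granule list, Hp was at 3197, 70.6, and 6104 CPM and Orm1 at 580, 9.35, and 1077 CPM in the day 4 control rats, so both were lowest in rat 2, where most members were highest. Both are also liver genes, and the liver markers summed to 112 to 16678 CPM in that group.

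Over the 21 plasma libraries, the tested genes outside the set whose log2(CPM + 1) was most like that of S100a9 were Clec4d, Vcan, Il1b, Hopx, and Mcemp1, with Pearson r of 0.82 to 0.86. Among the members, Mmp8 (r = 0.85) and Lyz2 (0.83) were as close, S100a8 (0.49), Csf3r (0.52), and Cxcr2 (0.51) less so, and Ngp, Camp, Itgam, and Mmp9 lay at 0.32 or below. In brain, Itgam was closest to the member Csf3r (r = 0.93) and then to Pik3cg, Arhgdib, Ctsz, Apobr, and Tal1 (0.89 to 0.92), while Lyz2 was at 0.47. These values describe libraries that share groups and depth, and S100a9 was not tested in brain.

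The myeloid miRNAs rose in brain EVs after stroke. By UMI counts scaled to CPM, miR-223-3p was at 34.1, 70.0, and 53.7 in healthy rats and at 789, 567, and 332 in control rats at 4 days, with no overlap. The log2 difference was 3.37 ± 0.59, 10.4-fold (edgeR adjusted p = 0.00138). At 10 days it was at 76.8, 643, and 212 CPM, called higher by 2.51 ± 0.58 (edgeR adjusted p = 0.00629), but not without control rat 2 (log2 difference 1.49). At 31 days it was at 109, 77.2, and 89.5 CPM and was not called (log2 difference 0.76 ± 0.59), and the fall from 4 to 31 days was called (-2.62 ± 0.55, edgeR adjusted p = 0.000880). This order of days was that of Lyz2 mRNA.

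**Figure D4:**
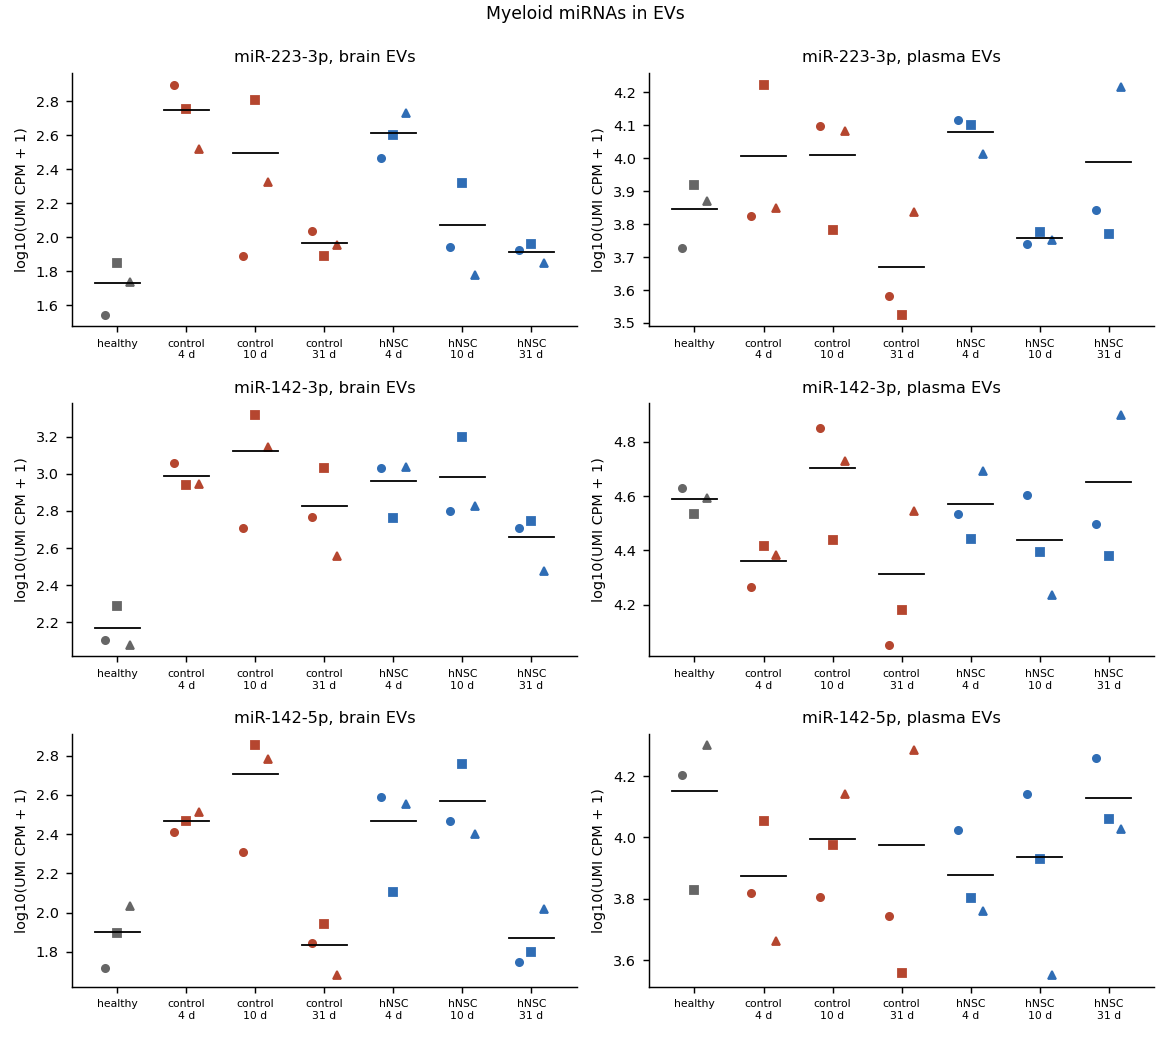
Level of miR-223-3p, miR-142-3p, and miR-142-5p in brain EVs (left) and plasma EVs (right), as log10(UMI CPM + 1), in the 7 groups of 3 rats, with circles, squares, and triangles for rats 1, 2, and 3 and bars for group means. In brain EVs the 3 day 4 control rats lie above the healthy rats for each miRNA, and miR-223-3p and miR-142-5p are low again at 31 days.

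miR-142-3p was called higher at all 3 days, by 2.72 ± 0.49, 3.17 ± 0.49, and 2.19 ± 0.48 on the log2 scale. It was at 126, 193, and 119 CPM in healthy rats and at 1149, 875, and 884 CPM at 4 days, and at 582, 1072, and 358 CPM at 31 days, where it had not returned to the healthy range. Its partner arm miR-142-5p was called higher at 4 days (1.86 ± 0.46) and 10 days (2.66 ± 0.47) but not at 31 days (-0.22 ± 0.48), and fell from 4 to 31 days by 2.08 ± 0.46. miR-223-5p had at most 7.01 CPM in brain and was not tested there. Of the 3 miRNAs tested, 3 were thus called at 4 days, against 14.6% of 350 miRNAs, 3 at 10 days (19.4%), 1 at 31 days (25.1%), and 2 from 4 to 31 days (28.9%). For hNSCs against control, 0 were called at 4 days (0.286% of miRNAs), 10 days (0%), and 31 days (0%). miR-223-3p alone had an unadjusted p under 0.05, at 10 days, with 86.3, 208, and 58.9 CPM (-1.33 ± 0.53, edgeR adjusted p = 0.602), and without control rat 2 the difference was -0.31. The shares of all miRNAs at an unadjusted p under 0.05 were 3.43%, 6.29%, and 1.14% at 4, 10, and 31 days, and DESeq2 called 0 of the 3 at each day.

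In plasma EVs these miRNAs were far more abundant and 0 of the 4 tested were called. miR-223-3p was at 5346 to 8296 CPM in healthy rats and at 6689, 16691, and 7045 CPM in control rats at 4 days (log2 difference 0.53 ± 0.43). The highest value was in rat 2, as for S100a9, Lyz2, and Itgam in that group. Over the 7 groups, the order of the 3 rats by miR-223-3p was that of S100a9 in 2, Lyz2 in 1, and Itgam in 3. edgeR called 0.324% of 309 miRNAs at 4 days, 0% at 10 and 31 days, 0%, 0.971%, and 0% for hNSCs at 4, 10, and 31 days, and 0% from 4 to 31 days. At an unadjusted p under 0.05 there were 0 of the 4 in the control comparisons with healthy rats at 4, 10, and 31 days (16.2%, 7.44%, and 16.8% of miRNAs) and for hNSCs at 4 and 10 days (4.53% and 12.6%). For hNSCs at 31 days there were 3 (11.3%), with log2 differences of 1.06 for miR-223-3p, 1.57 for miR-223-5p, and 1.13 for miR-142-3p, which were 0.43, 0.48, and 0.38 without hNSCs rat 3. From 4 to 31 days there were 2 (7.77%), both miR-223 arms, lower. DESeq2 called 0 in each of the 7 comparisons. miR-223-5p was at 85.3, 422, and 103 CPM at 4 days and at 36.2, 35.2, and 84.1 CPM at 31 days in control rats, a log2 difference of -1.96 ± 0.66 (edgeR adjusted p = 0.455), and of -0.84 without control rat 2 of day 4.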

How the data were processed

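EV RNA of 21 rats was read in 42 mRNA and 42 miRNA libraries, and p-values rest on 3 rats per group. That libraries of a group with the same number came from the same rat was inferred from library names and replicate numbers, as the labels name no animal. The deposited mRNA counts are unnormalized whole reads per gene, which the authors obtained after Bowtie2 alignment to the rat build Rnor 6.0; the counting tool, strand setting, and tool versions are not given in the sources used here. The deposited FPKM values come from the authors' StringTie step. miRNA reads were deposited as counts of unique molecular identifiers (UMIs), and a TPM version of that table was left out. Counts of the 18782 annotated genes were fitted with edgeR 4.0.16 in R 4.3.3 (TMM, filterByExpr, quasi-likelihood, 1 model of 7 groups per tissue), with 7 comparisons per tissue. DESeq2 1.42.0, limma 3.58.1 on log2(FPKM + 1), no count filter, the 2 groups alone, a replicate block, removal of hemoglobin genes, and leaving out each rat were the alternatives. The edgeR mRNA fit was tested on simulated counts, for control rats at 4 days against healthy rats. The members and lists were chosen with earlier results of these data known. Named genes were the 10 members, up to 4 per list and comparison (called ones by adjusted p, otherwise the highest by mean CPM), and the 5 genes most like S100a9 in plasma and Itgam in brain; those most like Itgam in plasma are not reported here. The labels call the fluid serum in the extraction text and plasma elsewhere. Replicate numbers were checked for pairing by the correlation of deviations from group means; every pair exceeded 0.1 only for hNSCs against control at 31 days in brain (mRNA 0.239 to 0.298, miRNA 0.238 to 0.489) and for control at 31 days against healthy in plasma miRNA (0.348 to 0.608), where the blocked fits changed no call of a member or myeloid miRNA. The pairing there comes from the data alone, not from the labels.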

Additional observations from a re-analysis of the deposited data

Results flagged for a closer look

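miR-142-3p at 4 days is given here because all 3 control rats moved away from the healthy rats in opposite directions in brain and plasma EVs. In brain EVs its log2 difference was 2.72 ± 0.49, and in plasma EVs it was -0.76 ± 0.49, with 18366, 26180, and 24260 CPM in control rats at 4 days against 42781, 34315, and 39063 CPM in healthy rats. The plasma difference was not called (edgeR adjusted p = 0.455), and the difference between brain and plasma was not tested.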

How the results depend on the processing

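The side of the threshold was kept by most results, and the exceptions are as follows. Number of members called per comparison: DESeq2 gave 2 in brain at 10 days against healthy, 1 from 4 to 31 days and 3 for the averaged control days, and in plasma 2 at 4 days and 2 at 31 days against healthy, 1 for hNSCs at 31 days, 4 from 4 to 31 days and 1 for the averaged days. The plasma counts against healthy at 4 days, at 31 days, and for the averaged days include Ngp, which had reads in only 5 of 21 libraries. limma on log2(FPKM + 1) gave 2 in brain at 31 days, 1 from 4 to 31 days and 1 for the averaged days, and 1 in plasma from 4 to 31 days. Without the count filter brain at 10 days gave 1, and with the 2 groups alone brain from 4 to 31 days gave 1. Leaving out 1 rat gave 0 to 1 in brain at 4 days, at 10 days and for the averaged days, and 0 in all other comparisons. The replicate block changed no count of members called (1 in brain at 4 days, otherwise 0). For miRNAs, alternatives chosen after seeing the data, miR-223-3p for hNSCs at 10 days in brain was called without the filter (-1.27). Leaving out 1 rat ended the call of miR-142-5p at 4 days (1.69 to 2.15) and of miR-223-3p at 10 days (1.49 to 2.95). The 1 reversed value was Cxcr2 in plasma over the averaged control days, 0.11 with limma against -3.27. The cause of these changes was not tested. Counts over all genes also moved by over 1.5 times. In brain at 4 days against healthy edgeR called 125, DESeq2 846, limma 254 and the 2 groups alone 540. At 10 days it was 83 against 613 (DESeq2), 0 (limma and the 2 groups alone), 50 without hemoglobin genes and 53 with the replicate block. At 31 days it was 1 against 176 (DESeq2), 8273 (limma), 6 (no filter) and 3 (2 groups alone). From 4 to 31 days it was 36 against 244, 4084 (limma) and 889 (2 groups alone), and for the averaged days 27 against 695, 458 (limma), 79 (no filter) and 46 (replicate block). In plasma DESeq2 called between 659 and 1668 per comparison where edgeR called 0 to 25, and the 2 groups alone gave 0 throughout. Under limma the median log2 difference of all genes rose from 0.24 to 0.69 in brain at 31 days and from 0.11 to 0.42 from 4 to 31 days. Depth limits the brain granule genes, for which 3 reads stood for up to 4.52 CPM.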
